A study of Capra hircus with 9 samples.

Results

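Galectins are small proteins that bind sugar chains ending in galactose, above all N-acetyllactosamine units on the N-glycans of cell surface and matrix glycoproteins. They are made in the cytosol and leave the cell without a signal peptide, and inside the cell some of them bind sugars that are exposed when a lysosome breaks. In the mammary gland, galectin-1 is known mainly from stromal cells, galectin-3 from epithelium and macrophages, and the gland loses and clears many epithelial cells after milking stops.

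The galectin genes described here were chosen by symbol as a list of 7, LGALS1, LGALS3, LGALS3BP, LGALS4, LGALS8, LGALS9 and LGALS12. Of the 23499 genes in the table, 5 carry one of these symbols and all 5 passed the filter on low values. LGALS9 and LGALS12 were not analysed here. The list was drawn up with results of these data known, among them the low LGALS3 value in late gestation, so the changes of these genes between stages are given as a description, without p-values.

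Mammary gland tissue was taken at slaughter from 9 healthy Laoshan dairy goats in the third parity that were kept on 1 farm, and 1 RNA-seq library was made from each goat. Late lactation (LL, 240 days postpartum), the dry period (DP, 300 days postpartum) and late gestation (LG, 140 days after mating) are represented by 3 goats each. The labels name no treatment or genetic change for any goat. The samples are whole tissue, so fewer cells of a type and less RNA per cell cannot be told apart in any value below.

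Values are FPKM, fragments scaled to transcript length and library total, so that levels of different genes can be compared per length. Depth in reads is not known from the table, and the FPKM of all genes added up to between 601250.0 and 1157015 per library. Each library was divided by a median-ratio scaling factor, which ranged over 0.498 to 0.605 for LL, over 1.44 to 1.53 for DP and over 1.198 to 1.31 for LG. Scaled FPKM and log2 fold changes below carry this correction, and deposited FPKM do not. A log2 fold change is the difference of mean log2(scaled FPKM + 1) between 2 stages, with a standard error (SE) from limma over 14701 genes and 9 libraries. Adding 1 makes the changes of weakly expressed genes look smaller than they are. Genes were called where the adjusted p (Benjamini-Hochberg) was under 0.05 and the log2 fold change reached 1 or -1. Without scaling, the median log2 fold change of all genes is not near 0 but at 1.09 for DP against LL, at 0.93 for LG against LL and at -0.18 for LG against DP.

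LGALS1 encodes galectin-1, a dimer with 1 kind of sugar-binding domain that crosslinks glycoproteins of matrix and immune cells (gene ID 102177782, chromosome 5, 108434615 to 108438060, plus strand). Its deposited FPKM was 14.2, 12.57 and 23.64 in the 3 LL libraries, 75.61, 151.16 and 307.05 in DP as well as 26.64, 38.1 and 33.87 in LG. After scaling the values were 28.5, 22.7 and 39.0 in LL, 49.5, 104.9 and 213.3 in DP as well as 22.2, 30.9 and 25.8 in LG. All 3 DP libraries lay above all LL and LG libraries on both scales, whereas LL and LG overlapped after scaling. The DP libraries differed among themselves by 4.31 times on the scaled values, against 1.72 times in LL and 1.39 times in LG. The log2 fold change was 1.78 (SE 0.44) for DP against LL and -1.95 (SE 0.44) for LG against DP, and both were called. For LG against LL it was -0.17 (SE 0.44), which turns to 0.96 without scaling and to 0.02 with quantile normalization or without LL replicate 3.

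LGALS3 encodes galectin-3, whose single sugar-binding domain is joined to a tail through which it forms oligomers (gene ID 102186125, chromosome 10, 35592162 to 35610850, minus strand). Deposited FPKM was 16.38, 10.36 and 29.29 in LL, 63.09, 185.65 and 172.3 in DP as well as 3.45, 5.13 and 6.51 in LG. Scaled FPKM was 32.9, 18.7 and 48.4 in LL, 41.3, 128.8 and 119.7 in DP as well as 2.88, 4.16 and 4.95 in LG. The 3 LG libraries were the lowest on both scales. DP lay above LL in deposited FPKM, but after scaling DP replicate 1 lay within the LL range. The log2 fold change was -2.70 (SE 0.45) for LG against LL and -4.15 (SE 0.45) for LG against DP, and both were called, also under every alternative tried. For DP against LL it was 1.44 (SE 0.45) and was called, but the call was lost without LL replicate 2 (1.07), without DP replicate 2 (1.15) and without DP replicate 3 (1.21).

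LGALS3BP encodes a secreted glycoprotein that galectin-3 binds and that is itself no galectin (gene ID 102177374, chromosome 19, 52624714 to 52634208, plus strand). It had 5.46, 5.6 and 5.82 deposited FPKM in LL, 18.52, 10.09 and 20.21 in DP as well as 11.74, 10.52 and 8.47 in LG. On the scaled values LL (9.61 to 10.97) lay within the range of DP (7.0 to 14.04), and LG (6.45 to 9.80) overlapped both. None of its 3 log2 fold changes was called, and they were 0.05 (SE 0.23) for DP against LL, -0.29 (SE 0.23) for LG against LL and -0.35 (SE 0.23) for LG against DP. The direction in DP against LL differed between alternatives. Without scaling the value was 1.33 and was called, and it was -0.13 without DP replicate 3, -0.03 without DP replicate 1 and -0.0046 without LL replicate 3. For LG against LL the value was 0.75 without scaling, so that direction too depends on the scaling.

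LGALS8 encodes galectin-8, which has a pair of different sugar-binding domains and marks broken vesicles for autophagy by binding the receptor made from CALCOCO2 (gene ID 102171841, chromosome 28, 36187601 to 36214581, minus strand). Deposited FPKM was 6.16, 5.35 and 4.87 in LL, 10.96, 10.81 and 10.46 in DP as well as 6.2, 5.37 and 7.44 in LG. After scaling the order was LL (8.04 to 12.4) above DP (7.17 to 7.50) above LG (4.35 to 5.66), with no overlap between stages. The log2 fold changes were -0.39 (SE 0.16) for DP against LL, -0.85 (SE 0.16) for LG against LL and -0.46 (SE 0.16) for LG against DP, and none was called, although LG against LL was called at -1.003 without LL replicate 3. Without scaling the first of these was 0.87 and the second 0.18, so only the direction of LG against DP was shared by all the scalings tried. Its row overlaps that of HEATR1 on the opposite strand by 2225 bases, and the library kit does not mark strand, so reads of that stretch cannot be told apart. HEATR1 had 2.84, 2.67 and 4.2 deposited FPKM in LL, 9.91, 12.25 and 13.09 in DP as well as 6.41, 6.91 and 13.04 in LG, and its part in the LGALS8 values was not tested.

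LGALS4 encodes galectin-4, known mainly from gut epithelium (gene ID 102178655, chromosome 18, 49424869 to 49433246, minus strand). It had 0.03, 0.19 and 0.17 deposited FPKM in LL, 1, 0.5 and 1.06 in DP as well as 0.98, 1.83 and 1.05 in LG. Because no LL library reached the minimum of 0.5 FPKM, it entered the tests only through DP and LG and had to differ from LL. Scaled FPKM was 0.060, 0.34 and 0.28 in LL, 0.65, 0.35 and 0.74 in DP as well as 0.82, 1.48 and 0.80 in LG, with the highest LL library just below the lowest DP library. The log2 fold change was 0.36 (SE 0.18) for DP against LL, which turns to -0.24 with quantile normalization, 0.72 (SE 0.18) for LG against LL and 0.36 (SE 0.18) for LG against DP. These were not called with a pseudocount of 1, and LG against LL was called with a pseudocount of 0.1 (1.86) and, barely, without scaling (1.0006). Of 5 gut epithelial marker genes, CDX2 was listed at 0 in all 9 libraries and CDX1 in all LG libraries, and the list summed to 0.26 to 1.57 scaled FPKM in LL, 1.27 to 1.82 in DP and then 0.95 to 1.94 in LG. VIL1, the 1 tested gene of that list, had 0.11 to 0.35 deposited FPKM in LL, 1.06 to 2.25 in DP and then 0.97 to 2.54 in LG. Like LGALS4 it was under 0.5 FPKM in every LL library. It was not called, but was called higher against LL without scaling (1.06 in DP and 1.15 in LG). ECH1, a gene of fatty acid oxidation, ends 913 bases from LGALS4 on the same strand and had 8.92 to 11.95 deposited FPKM in LL, 17.15 to 23.6 in DP and then 37.48 to 42 in LG. LGALS4 was 0.0127 ± 0.0084 (SD, n = 3) of ECH1 in LL, 0.0389 ± 0.0085 in DP and 0.033 ± 0.013 in LG, and the part of ECH1 in the LGALS4 values was not tested.

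**Figure D1:**
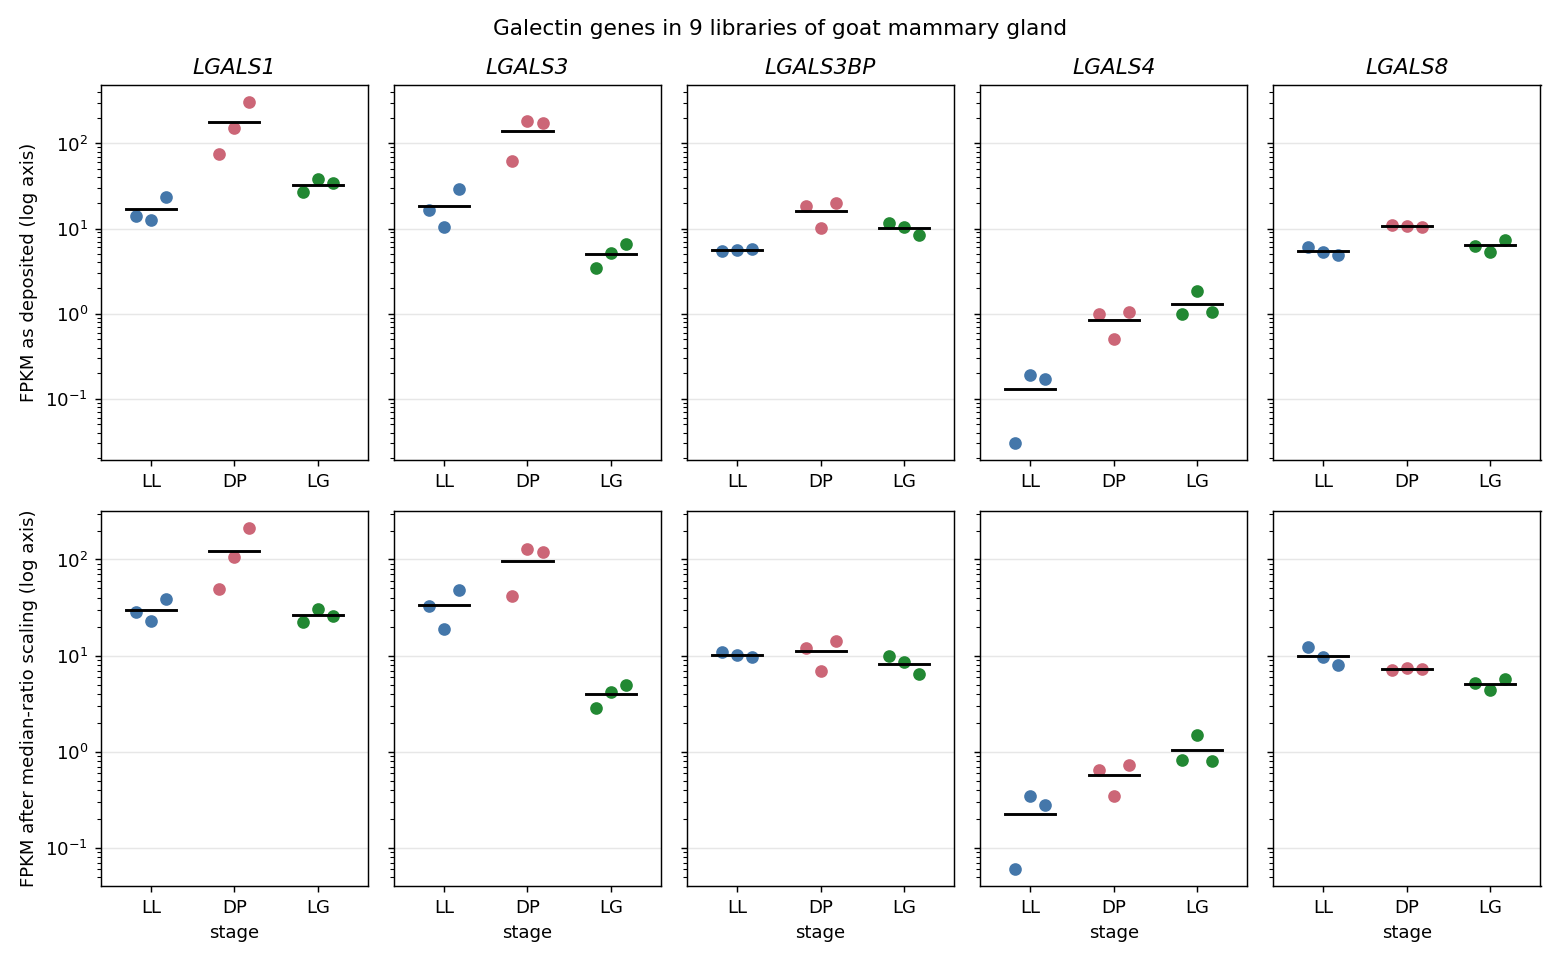
Each point is 1 library of late lactation (LL), the dry period (DP) or late gestation (LG), and each line the mean of 3, in FPKM as deposited (top) and after median-ratio scaling (bottom), both on log axes. LGALS1 stands out in DP on both scales, LGALS3 is lowest in LG on both, and the DP values of LGALS8 lie above LL in the top row (10.46 to 10.96 against 4.87 to 6.16) and below LL in the bottom row.

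Of the 5 genes tested, 2 were called in DP against LL, both higher, where 22.6% of all genes were called (13.8% higher and 8.79% lower). In LG against LL 1 was called, lower, where 17.3% of all genes were called (10.7% higher and 6.61% lower), and in LG against DP 2 were called, both lower, where the figures were 13.3%, 6.37% and 6.88%. Stages did not overlap on the scaled values for 3 of the 5 genes in DP against LL (2 higher, 1 lower), for 3 in LG against LL (1 higher, 2 lower) and for 4 in LG against DP (1 higher, 3 lower). Among all genes tested, the shares without overlap were 32.5% higher and 33.4% lower in DP against LL, 31.0% and 30.2% in LG against LL and 25.1% and 22.8% in LG against DP. The median log2 fold change of the 5 genes was 0.36, -0.29 and -0.46 in these 3 comparisons, beside medians of 0.00, 0.02 and 0.01 over all genes. The 0.36 is the value of LGALS4, which entered the tests only through DP and LG. LGALS4 is also 1 of the 2 higher genes without overlap in DP against LL and the 1 higher gene in LG against LL. Because the genes were chosen with these contrasts known, nothing is read from the counts. Each pair of comparisons shares 3 libraries, so they are not independent of each other.

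**Figure D2:**
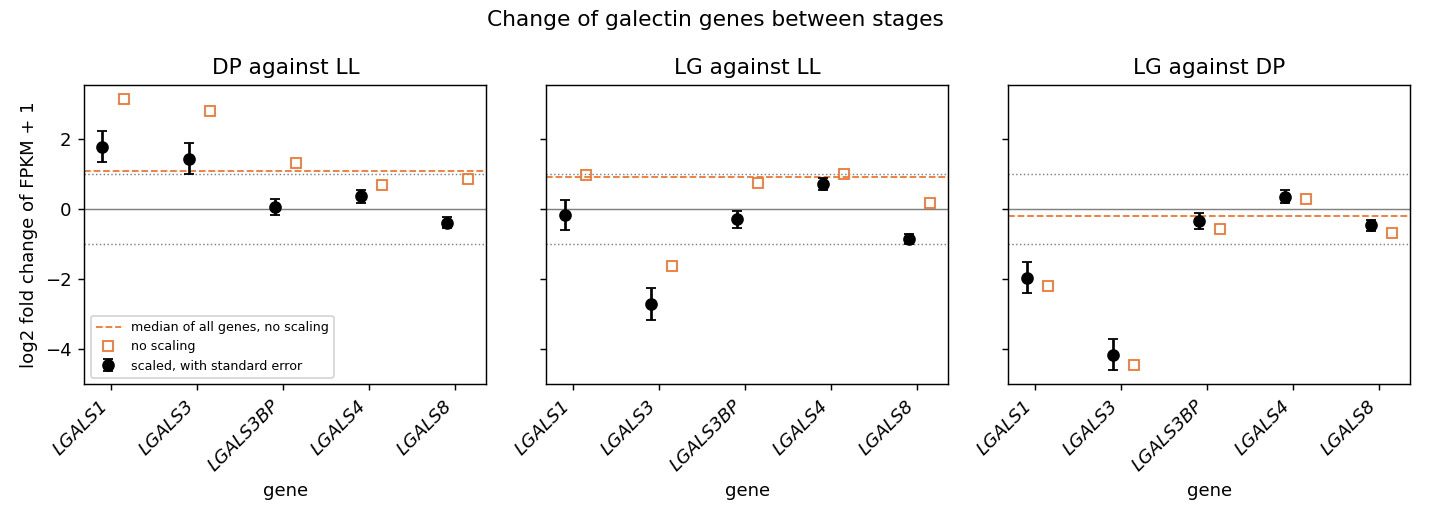
Black points are log2 fold changes of scaled FPKM + 1 with their standard errors for the 5 galectin genes, open squares the same without scaling, dashed lines the median of all genes without scaling, and dotted lines a log2 fold change of 1 in either direction. In the panels of LG, LGALS3 lies at -2.70 (against LL) and -4.15 (against DP), LGALS1 at 1.78 in DP against LL and -1.95 in LG against DP, and the unscaled squares in the first 2 panels follow the shifted median of 1.09 and 0.93.

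Another 5 rows carry symbols that begin with LGALS. LGALS7, whose product is known from stratified epithelia, had 3.4 to 5.37 deposited FPKM in LL, 11 to 23.75 in DP and then 5.53 to 10.73 in LG, and LGALSL, which encodes a galectin-like protein, had 2.96 to 4.31, 6.06 to 9.95 and 5.83 to 5.97. Neither was called, with log2 fold changes of 0.38 (SE 0.29), -0.42 (SE 0.29) and -0.80 (SE 0.29) for LGALS7 and -0.32 (SE 0.17), -0.36 (SE 0.17) and -0.04 (SE 0.17) for LGALSL in DP against LL, LG against LL and LG against DP. LGALS2 and LGALS16 did not exceed 0.49 and 0.53 FPKM in any library and LGALS15 was listed at 0 in all 9, so these 3 were not tested.

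The order of the galectin genes within a library does not depend on the scaling of libraries. In LL, LGALS3 (10.36 to 29.29 deposited FPKM) and LGALS1 (12.57 to 23.64) led and overlapped, followed by LGALS3BP (5.46 to 5.82) and LGALS8 (4.87 to 6.16), which overlapped as well, and LGALS4 was far below. In DP the order was LGALS1 and LGALS3, overlapping, then LGALS3BP (10.09 to 20.21) and LGALS8 (10.46 to 10.96), again overlapping, then LGALS4. In LG it was LGALS1 (26.64 to 38.1), LGALS3BP (8.47 to 11.74) and LGALS8 (5.37 to 7.44), each without overlap with the next, while the range of LGALS3 (3.45 to 6.51) overlapped that of LGALS8 and stood above LGALS4 (0.98 to 1.83). Within each LG library LGALS3 was below LGALS8 (3.45, 5.13 and 6.51 against 6.2, 5.37 and 7.44). Among these 5 genes, LGALS3 thus stood in the leading pair in LL and DP and near the level of LGALS8 in LG. LGALS7, which is not on the list, was above LGALS3 in all 3 LG libraries (5.53, 6.26 and 10.73 against 3.45, 5.13 and 6.51 deposited FPKM). Ranked among the 14701 genes within each library, LGALS3 exceeded 85.7% to 95.1% of genes in LL, 96.3% to 98.6% in DP and then 37.4% to 54.0% in LG. LGALS1 exceeded 88.2% to 94.2% in LL, 97.0% to 99.0% in DP and then 90.0% to 93.5% in LG, so that its rank in LL and LG overlapped.

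Shares within a library are also free of scaling. Of the summed FPKM of all LGALS rows, LGALS3 held 32.6% ± 7.27 (SD, n = 3) in LL, 37.9% ± 8.58 in DP and 7.15% ± 1.56 in LG, and LGALS1 held 30.3% ± 1.89, 45.5% ± 10.2 and 47.2% ± 4.13. LGALS3BP held 10.8% ± 2.87 in LL, 5.43% ± 3.93 in DP and 15.03% ± 4.002 in LG, and LGALS8 held 10.6% ± 3.51, 3.53% ± 2.07 and 9.19% ± 1.64. The LGALS3 share in LG (5.69% to 8.80%) lay below its share in every LL and DP library (25.2% to 47.7%), and the LGALS1 share in LL (28.3% to 32.1%) lay below that in every DP and LG library (38.9% to 57.2%). LGALS4 held 0.25% ± 0.20 in LL, 0.29% ± 0.22 in DP and 1.84% ± 0.57 in LG, and its LG libraries (1.42% to 2.49%) exceeded all others.

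The ratio of LGALS3 to LGALS1 was 1.15, 0.82 and 1.24 in the LL libraries, 0.83, 1.23 and 0.56 in DP as well as 0.130, 0.135 and 0.192 in LG. LL and DP overlapped, and LG was lower than both without overlap, with means of 1.07 ± 0.22, 0.875 ± 0.335 and 0.152 ± 0.035 (SD, n = 3). LGALS3BP was below LGALS3 in all 6 LL and DP libraries (ratios of 0.054 to 0.541) and above it in all 3 LG libraries (1.30 to 3.40). The scaled sum of all LGALS rows was 74.3 to 121.7 in LL, 122.2 to 372.9 in DP and then 50.7 to 59.6 in LG, so that the lowest DP library was at about the level of the highest LL library.

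**Figure D3:**
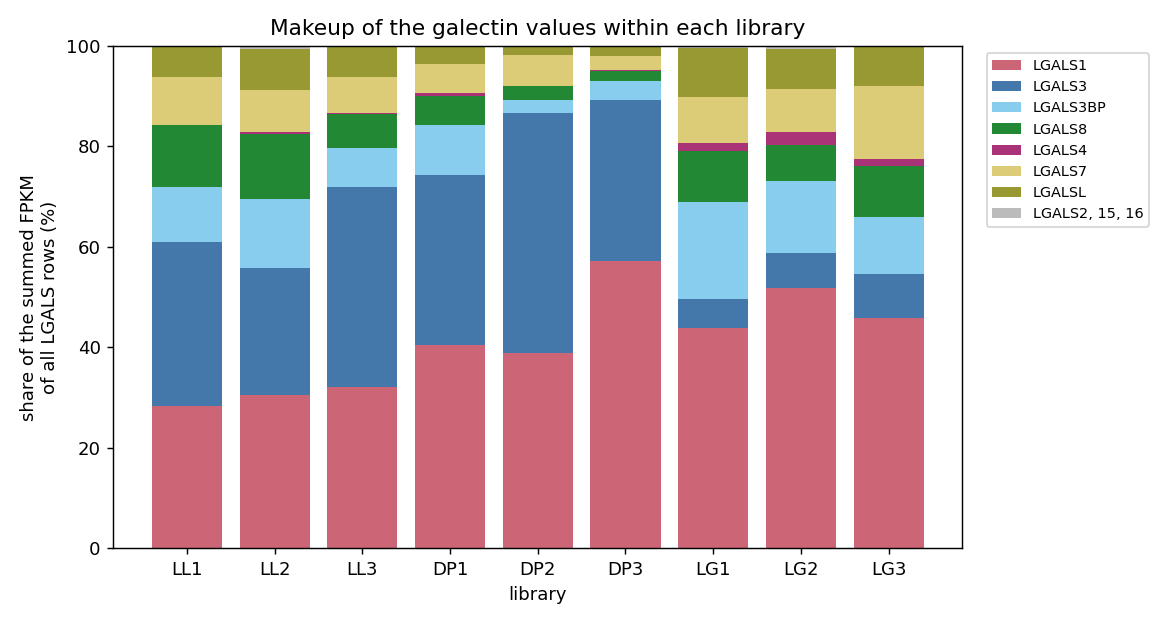
Stacked bars show the share of each gene, in percent, in the summed FPKM of all rows whose symbol begins with LGALS, for each of the 9 libraries. The blue LGALS3 segment takes 25.2% to 39.8% in LL, 32.1% to 47.7% in DP and then 5.69% to 8.80% in LG.

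Markers of cells known to make galectins moved between the same stages. Of 16 macrophage marker genes, 15 have a row and 13 were tested, and their scaled FPKM summed to 164.0 to 193.9 in LL, 309.3 to 386.1 in DP and then 150.7 to 160.9 in LG, with MARCO at 0 in all LG libraries. In DP against LL 6 of the 13 were called, each higher, in LG against LL 5, each lower, and in LG against DP 12, each lower, beside 13.8%, 6.61% and 6.88% of all genes called in those directions. The medians of the list were 0.93, -0.40 and -1.21. The 6 in DP against LL were 11 without scaling. Among them, CSF1R (0.93) and TYROBP (0.99) lost their calls without DP replicate 1, and MRC1 (0.69) without DP replicate 3. In LG against DP, AIF1, MRC1, C1QA and C1QC lost theirs without DP replicate 3 (-0.95, -0.71, -0.91 and -0.92). The 5 lower calls in LG against LL (CD68, CD14, TREM2, GPNMB and MSR1) depend on the scaling. Without it none of them was called and C1QA, C1QB and C1QC were called higher, at 1.50, 1.36 and 1.57, and with quantile normalization 3 were called lower. They were also 3 without LG replicate 2, 2 without LG replicate 3 and 1 without LL replicate 3. GPNMB, a lysosomal glycoprotein of lipid-laden macrophages, fell by 3.73 (SE 0.86) in LG against DP, and its DP libraries spread from 6.62 to 129.93 deposited FPKM. At 0.12 to 0.67 deposited FPKM in LG, it could not have passed the filter on LG alone, so no p-value is given. CD14, the receptor for bacterial lipopolysaccharide, fell by 1.90 (SE 0.31, limma adjusted p = 0.00161) in LG against DP and by 1.18 (SE 0.31, limma adjusted p = 0.0111) in LG against LL, the latter being -0.19 and not called without scaling. C1QC, a subunit of complement C1q, rose by 1.50 (SE 0.18, limma adjusted p = 0.00013) in DP against LL.

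Relative to the macrophage sum, LGALS3 was 0.183 ± 0.077 (SD, n = 3) in LL, 0.270 ± 0.118 in DP and 0.0260 ± 0.0074 in LG. Its LL range (0.114 to 0.266) overlapped that of DP (0.133 to 0.343), whereas the LG range (0.0179 to 0.0325) lay below both. Without FCER1G, 1 of the markers, whose row is not a separate measurement in this table, the sum was 114.4 to 148.8 in LL, 283.9 to 357.99 in DP and then 107.6 to 123.4 in LG, and the LGALS3 ratio was 0.253 ± 0.108, 0.294 ± 0.129 and 0.035 ± 0.011, with LG again below both.

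Luminal epithelial marker genes, all 9 of them tested, summed to 946.4 to 1199.8 scaled FPKM in LL, 390.02 to 694.7 in DP and then 909.2 to 1068 in LG, and LGALS3 was 0.032 ± 0.018 of that sum in LL, 0.177 ± 0.067 in DP and 0.0040 ± 0.0008 in LG without overlap between stages. The lower sum in DP is that of ELF5, a transcription factor of milk-secreting cells, at 266.27 to 373.76 deposited FPKM in LL, 37.56 to 63.74 in DP and then 503.89 to 654.06 in LG. It was the 1 gene of the 9 called in DP against LL, at -4.19 (SE 0.25, limma adjusted p = 3.13e-06), where 8.79% of all genes were called lower. The keratin genes KRT8, KRT18 and KRT7 had 0.28, 0.60 and 0.86. KRT19, EPCAM, CDH1, CLDN3 and CLDN4 had -0.40, -0.74, -0.48, -0.35 and -0.18. None of these was called, and the median of the list was -0.35. Without scaling KRT8, KRT18, KRT7, KRT19 and CLDN4 were called higher in DP against LL, at 1.67, 1.92, 2.26, 1.01 and 1.19. KRT19 and CLDN4 thereby turned direction. Quantile normalization called KRT8 (1.01) and KRT7 (1.55) higher. In LG against LL 0 of the list were called, or 6 higher without scaling. In LG against DP 2 were called, both higher, beside 6.37% of all genes. Without ELF5, a choice made after the values were seen, the sums of LL (462.9 to 524.1), DP (364.2 to 650.4) and LG (458.5 to 570.2) overlapped. LGALS3 was then 0.0674 ± 0.0300 of the sum in LL, 0.188 ± 0.070 in DP and 0.00745 ± 0.00120 in LG, again without overlap between stages. The low LGALS3 level in LG was thus present relative to the macrophage sum and to the luminal sum, and the part of either cell type in it was not tested.

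For LGALS1 the corresponding markers are those of fibroblasts, 10 genes that were all tested and of which none was at 0. Their scaled sum was 416.5, 379.97 and 570.1 in LL, 796.6, 1398 and 3185 in DP as well as 621.6, 1102 and 806.1 in LG. The 3 DP libraries were in the same order for this sum as for LGALS1. In DP against LL 9 of the 10 were called, each higher, with a median of 1.71, in LG against LL 2, each higher, with a median of 0.06, and in LG against DP 6, each lower, with a median of -1.32, beside 13.8%, 10.7% and 6.88% of all genes called in those directions. The 2 in LG against LL were 5 without scaling (COL1A2, PDGFRB and THY1 being added), 3 with a replicate block and 1 without the filter, without LL replicate 1, without LL replicate 2 or without LG replicate 2. COL1A1, a chain of type I collagen, rose by 2.37 (SE 0.68, limma adjusted p = 0.0148) in DP against LL, and PDGFRA, a growth factor receptor of fibroblasts, fell by 2.41 (SE 0.20, limma adjusted p = 6.58e-05) in LG against DP.

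LGALS1 was 0.0656 ± 0.0050 (SD, n = 3) of the fibroblast sum in LL and 0.0680 ± 0.0065 in DP, which overlapped, and 0.0319 ± 0.0039 in LG, below both. The 3 collagen genes of the list, COL1A1, COL1A2 and COL3A1, had log2 fold changes of 2.12, 1.68 and 2.42 in LG against LL, and the other 7 genes had -0.76 to 0.31. With the 3 collagen genes left out, a choice made after the values were seen, the ratio was 0.0913 ± 0.0072 in LL, 0.120 ± 0.030 in DP and 0.110 ± 0.008 in LG. Libraries of LG (0.101 to 0.115) then lay inside the DP range (0.091 to 0.151). The part of fibroblasts in the LGALS1 values was not tested.

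**Figure D4:**
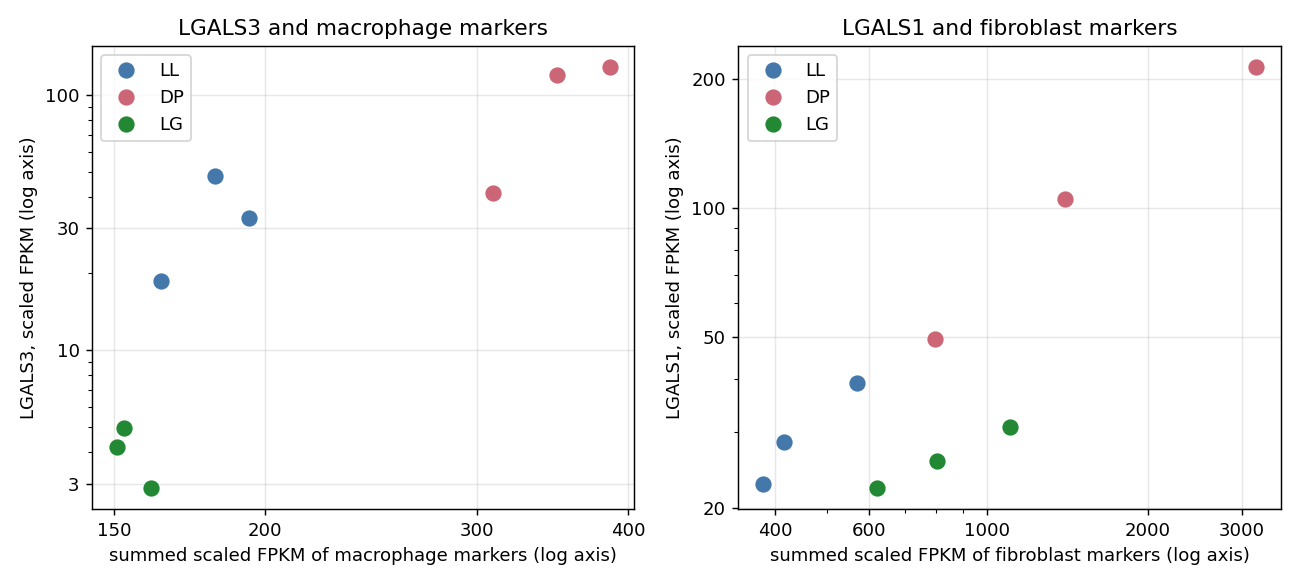
Each point is 1 library, with the summed scaled FPKM of 15 macrophage markers against LGALS3 (left) and of 10 fibroblast markers against LGALS1 (right), all axes logarithmic. The LG libraries lie far below the LL libraries in LGALS3 (2.88 to 4.95 against 18.7 to 48.4) at a macrophage sum of 150.7 to 160.9 against 164.0 to 193.9, and LGALS1 reaches 49.5, 104.9 and 213.3 in DP where the fibroblast sum is 796.6, 1398 and 3185.

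Other cell types were described by their marker lists. T cell markers summed to 7.73 to 8.10 scaled FPKM in LL, 27.7 to 85.99 in DP and then 26.4 to 44.9 in LG, and of the 10 genes 8 were called in DP and 6 in LG against LL, as was 1 (CD5) in LG against DP, each higher, beside 13.8%, 10.7% and 6.37% of all genes. Of those called against LL, 6 in DP and all 6 in LG were under 0.5 FPKM in every LL library, so they entered the tests only through the stages where they are high, and the counts are not read further. CD5 in LG against DP was not called without DP replicate 2, DP replicate 3, LG replicate 1 or LG replicate 3 (0.93 to 1.46). B lineage markers, of which 2 of 6 were tested, summed to 192.8 to 846.5 in LL, 40.4 to 138.9 in DP and then 10.9 to 23.1 in LG. Adipocyte markers summed to 290.1 to 419.8 in LL, 18.8 to 37.8 in DP and then 29.4 to 38.3 in LG, and the LL sum was mostly CIDEA (181.3 ± 32.4 deposited FPKM), which lactating epithelium also uses. Of 6 endothelial markers, TEK, the angiopoietin receptor, was called lower in LG against DP at -1.19 (SE 0.21, limma adjusted p = 0.0022), a call lost without DP replicate 3 (-0.98). Neutrophil markers summed to 8.46 to 23.4, 10.3 to 38.1 and 4.75 to 12.4, basal and myoepithelial markers to 189 to 247.1, 141 to 458.5 and 229.1 to 310.3. KRT5 and KRT14 of that list follow a neighbouring row to within rounding, and without them the sum was 81.9 to 113.1, 58.04 to 231.05 and 84.4 to 99.8. Keratinocyte and skeletal muscle markers stayed at or under 5.86 and 1.195 scaled FPKM in every library, the former mostly KRT10, whose row is not a separate measurement either.

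The proteins that galectins bind were represented by a list of 21 genes, of which 20 were tested. In DP against LL 5 were called higher and 5 lower, in LG against LL 2 higher and 4 lower, and in LG against DP 4 were called, each lower, with list medians of 0.05, -0.50 and -0.38. The shares of the list called in either direction stand beside 22.6%, 17.3% and 13.3% of all genes. The split by direction depends on the scaling. Without it 12 were called higher and 1 lower in DP against LL, 4 higher and 1 lower in LG against LL and 7 lower in LG against DP, and with quantile normalization 5 higher and 1 lower, 2 lower and 5 lower. The 4 in LG against DP were 2 without DP replicate 1 or without LG replicate 3. HAVCR2 and MERTK, which make up the 2 higher calls in LG against LL and 2 of the 5 in DP against LL, were under 0.5 FPKM in every LL library. Such genes entered the tests only through DP and LG and had to differ from LL, so their changes against LL are given here and below without p-values. Among the genes of the whole table that did not enter in this way, 5.03% were called higher and 9.94% lower in DP against LL, and 3.62% and 7.17% in LG against LL. LGALS3BP is counted with the galectins and not here.

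Of the matrix and adhesion partners, FN1, which encodes fibronectin, had 4.93, 8.01 and 17.19 deposited FPKM in LL, 67.39, 55.29 and 276.55 in DP as well as 14.5, 36.53 and 24.76 in LG. DP lay above the other stages, and FN1 rose by 2.04 (SE 0.60, limma adjusted p = 0.0169) in DP against LL and fell by 1.81 (SE 0.60, limma adjusted p = 0.0423) in LG against DP. The first call was lost without LL replicate 1 (1.70) or LL replicate 2 (1.95), and the second without DP replicate 3 (-1.07) among others. CD44, the hyaluronan receptor, had 4.89 to 12.85 deposited FPKM in LL, 49.08 to 60.73 in DP and then 10.02 to 14.45 in LG. It rose by 1.30 (SE 0.27, limma adjusted p = 0.00293) in DP against LL, a call lost without LL replicate 2 (0.97), and fell by 1.88 (SE 0.27, limma adjusted p = 0.00076) in LG against DP. ITGB1, the integrin chain shared by most matrix receptors, had log2 fold changes of 0.11 (SE 0.17), -0.03 (SE 0.17) and -0.14 (SE 0.17), none called. ITGA3, another integrin chain, had 0.66 (SE 0.13), 0.13 (SE 0.13) and -0.53 (SE 0.13) and was not called. Without scaling ITGB1 (1.51) and ITGA3 (1.74) were called higher in DP against LL, and ITGB1 (1.13) also in LG against LL. ITGA6, a laminin-binding integrin chain, fell by 1.16 (SE 0.13, limma adjusted p = 8.83e-05) in DP against LL, where deposited FPKM was 25.97 to 26.51 in LL and 28.54 to 34.42 in DP, so the value was 0.21 without scaling and the direction depends on it.

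Among partners on immune cells, PTPRC, which encodes the leukocyte surface protein CD45, had 2.96 to 4.13 deposited FPKM in LL, 56.01, 27.6 and 19 in DP and 8.42 to 12.93 in LG. It rose by 1.58 (SE 0.32, limma adjusted p = 0.00255) in DP against LL and fell by 1.24 (SE 0.32, limma adjusted p = 0.0144) in LG against DP, the latter call being lost without DP replicate 1 (-0.84) and without LG replicate 3 (-1.07). HAVCR2, the T cell and myeloid receptor TIM-3 that galectin-9 binds, had 0.11 to 0.18 deposited FPKM in LL, 3.96 to 6.54 in DP and then 1.74 to 2.33 in LG. Its log2 fold change was 1.85 (SE 0.15) for DP and 1.05 (SE 0.15) for LG against LL, and the latter was under 1 without LG replicate 1 (0.95), with only the 2 stages fitted (0.94) and with quantile normalization (0.62). MERTK, a receptor for dying cells, had 0.15 ± 0.026 deposited FPKM in LL and log2 fold changes of 1.80 (SE 0.18) for DP and 1.31 (SE 0.18) for LG against LL, the latter being 0.90 with quantile normalization. TREM2, a lipid receptor of macrophages, had 0.05 to 0.61 deposited FPKM in LG. It could not have passed the filter on LG alone, so its p-values are left out. TREM2 fell by 1.19 (SE 0.28) in LG against LL and by 1.21 (SE 0.28) in LG against DP. These calls were lost without LL replicate 3 (-0.99) and without DP replicate 1 (-0.97), and the first of them without scaling (-0.61). SPN had log2 fold changes of 0.77 (SE 0.20), 0.49 (SE 0.20) and -0.27 (SE 0.20), NRP1 of -0.17 (SE 0.23), -0.97 (SE 0.23) and -0.80 (SE 0.23), and ITGAM of 0.07 (SE 0.30), -0.72 (SE 0.30) and -0.79 (SE 0.30), and none of these was called. Without scaling SPN (1.43), NRP1 (1.19) and ITGAM (1.005) were called higher in DP against LL, so NRP1 turned direction. In LG against DP, NRP1 was called lower without scaling (-1.03) and with quantile normalization (-1.07). In LG against LL it was called lower with a pseudocount of 0.1 (-1.01). VPS13C, a lipid transfer protein that binds galectin-12, had 0.56 (SE 0.16), -0.02 (SE 0.16) and -0.57 (SE 0.16) and was not called either. Without scaling VPS13C was called higher in DP against LL (1.76). LAG3 stayed under the filter. The CD7 row followed a neighbouring row to within rounding, so its value, called lower in DP against LL, is not a separate measurement, and 9 of the list were called there without it.

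Of the epithelial and lysosomal partners, MUC1, a mucin of the luminal surface and of milk fat globules, had 10.08, 7.76 and 6.45 deposited FPKM in LL, 0.23, 0.2 and 0.58 in DP as well as 0.44, 1.71 and 0.19 in LG. It fell by 3.66 (SE 0.29) in DP and by 3.32 (SE 0.29) in LG against LL, with DP and LG overlapping. MUC1 passed the filter only through LL, where it is high, so no p-values are given. EGFR had log2 fold changes of -0.66 (SE 0.15), -0.50 (SE 0.15) and 0.16 (SE 0.15) and was not called. P4HB, a disulfide isomerase to which galectin-9 binds on cell surfaces, fell by 1.73 (SE 0.25, limma adjusted p = 0.000378) in DP and by 1.01 (SE 0.25, limma adjusted p = 0.00822) in LG against LL. CALCOCO2, the autophagy receptor that galectin-8 binds, fell by 1.39 (SE 0.22, limma adjusted p = 0.000601) and by 1.07 (SE 0.22, limma adjusted p = 0.00309) in the same comparisons. Both genes depend on the scaling, with values without it of -0.33 and 0.16 for P4HB and of 0.01 and 0.10 for CALCOCO2, none called. The LG against LL call of P4HB was also lost without LL replicate 1 (-0.97), LL replicate 2 (-0.92) or LG replicate 2 (-0.97), and that of CALCOCO2 without LG replicate 1 (-0.93) or LG replicate 2 (-0.97). LAMP1 and LAMP2, the main glycoproteins of the lysosomal membrane, had -0.25 (SE 0.14) and -0.45 (SE 0.14) in DP against LL and -0.22 (SE 0.14) and -0.64 (SE 0.14) in LG against LL, and were not called. Without scaling LAMP1 turned to 1.14 in DP against LL and was called higher.

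**Figure D5:**
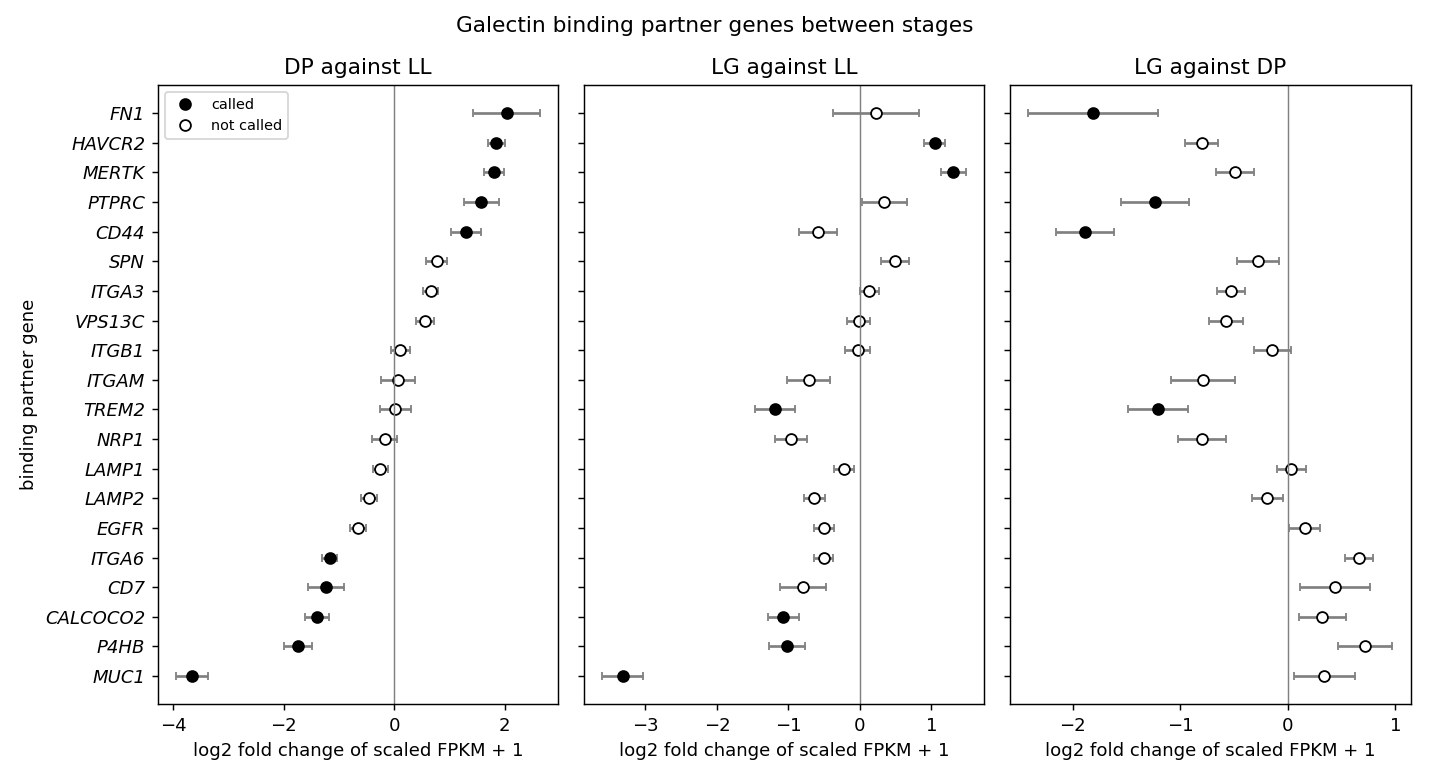
Points are log2 fold changes of scaled FPKM + 1 with standard errors for the 20 tested binding partner genes, filled where called, in the same order in all 3 panels. MUC1 is the lowest in both comparisons with LL (-3.66 and -3.32), and FN1, HAVCR2 and MERTK lead DP against LL at 2.04, 1.85 and 1.80.

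Enzymes that build N-glycan branches and the lactosamine and sialic acid ends that decide galectin binding form a list of 15 genes, all tested. In DP against LL 5 were called higher and 3 lower, in LG against LL 2 higher and 1 lower, and in LG against DP 1 higher and 3 lower. All genes called higher and lower were 13.8% and 8.79%, 10.7% and 6.61%, and 6.37% and 6.88% in these comparisons. Without scaling the counts were 10 higher and 1 lower, 7 higher and 0 lower, and 1 higher and 4 lower, so those against LL depend on it. ST3GAL4, a sialyltransferase, rose by 1.78 (SE 0.19, limma adjusted p = 5.59e-05) in DP against LL, with 0.89 to 1.65 deposited FPKM in LL, 11.92 to 19.31 in DP and then 3.18 to 4.48 in LG, and fell by 1.50 (SE 0.19, limma adjusted p = 0.000401) in LG against DP. ST3GAL6, a sialyltransferase as well, and B3GNT8, which extends lactosamine chains, were under 0.5 FPKM in every LL library, with log2 fold changes of 1.74 (SE 0.16) and 1.57 (SE 0.15) in DP against LL. B3GNT2, another enzyme of chain extension, fell by 1.31 (SE 0.25, limma adjusted p = 0.00346) in LG against DP. GCNT1, which starts branches on O-glycans, had 0.05, 0.35 and 0.6 deposited FPKM in LL and 4.43 to 5.66 in LG. It could not have passed the filter on LL alone, so no p-value against LL is given. In LG against LL, GCNT1 had a log2 fold change of 1.70 (SE 0.28), and B3GNT8 had 1.19 (SE 0.15), or 0.94 with quantile normalization.

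Further enzymes were called lower. MAN2A1, a mannosidase of N-glycan maturation, fell by 1.41 (SE 0.16, limma adjusted p = 9.01e-05) in DP against LL, where deposited FPKM was 16.86 to 18.28 in LL and 14.13 to 18.92 in DP, and it was at -0.07 and not called without scaling. MGAT5, which adds a branch that carries lactosamine chains, fell by 1.03 (SE 0.22, limma adjusted p = 0.00557) in LG against DP, a call lost without DP replicate 1 (-0.79) or LG replicate 1 (-0.99) and with quantile normalization (-0.99). B4GALT1, which adds galactose and with lactalbumin makes lactose, had a row that followed that of SMU1 to within rounding, so its values (log2 fold change -2.24 in DP against LL and 1.62 in LG against DP) are not a separate measurement. MGAT2 (log2 fold change -2.69 and -2.06 in DP and LG against LL) was listed at 261938 ± 51688 deposited FPKM in LL, where no other gene of the list had a mean above 63.8, and no sum of the list is given for that reason. With quantile normalization MGAT2 was at -0.67 and -0.75 and not called, and without scaling LG against LL was at -0.88 and not called. Without the filter MGAT2 was not called in either comparison. Without B4GALT1 the counts called were 7, 3 and 3, and those against LL still include MGAT2.

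For the response to damaged lysosomes, 11 of 12 genes were tested. Against LL, 1 was called higher and 2 lower in DP, and 1 higher and 1 lower in LG, while LG against DP had 1 lower. Beside these counts, 13.8% of all genes were called higher and 8.79% lower in DP against LL. The shares were 10.7% and 6.61% in LG against LL and 6.37% and 6.88% in LG against DP. Without scaling the counts of the list were 8, 5 and 0 higher and 0, 0 and 1 lower. TFEB, the transcription factor of lysosome genes, was the gene called higher, with log2 fold changes of 1.63 (SE 0.10) against LL in both DP and LG, and at 0.06 to 0.09 deposited FPKM it was under the filter in every LL library. CALCOCO2 and TAX1BP1, both autophagy receptors, were called lower in DP against LL, TAX1BP1 at -1.34 (SE 0.18, limma adjusted p = 0.000223), and TAX1BP1 was at 0.05 without scaling. SQSTM1, the autophagy receptor p62, fell by 1.04 (SE 0.16, limma adjusted p = 0.00112) in LG against DP, a call lost without DP replicate 2 (-0.94) or LG replicate 1 (-0.96).

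Of 14 interferon response genes tested, 6 were called in DP against LL and 3 in LG against LL, each higher, beside 13.8% and 10.7% of all genes. In LG against DP 3 were called, each lower, beside 6.88%. These 3 became 5 without DP replicate 1, of which IRF1 was higher at 1.01. They became 5 without LG replicate 2 and 1 without DP replicate 3. Without scaling the counts were 12, 7 and 8. IRF9, called only under such alternatives, has a row that follows a neighbouring row to within rounding. Of those called against LL, MX1, MX2 and RSAD2 in DP and MX1 in LG were under 0.5 FPKM in every LL library. MX1, an antiviral GTPase, had log2 fold changes of 2.08 (SE 0.23) for DP and 1.28 (SE 0.23) for LG against LL, the latter being 0.85 with quantile normalization. RSAD2, the antiviral protein viperin, fell by 1.28 (SE 0.25, limma adjusted p = 0.0042) in LG against DP.

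For each galectin gene, the 3 genes with the highest Pearson correlation over the 9 libraries were named, on log2(scaled FPKM + 1) and among all tested genes that are not neighbours on the chromosome. These values describe libraries that share 3 stages and carry no test. LGALS1 was most like EFEMP2 (r = 0.988), THBS2 (0.983) and CLEC3B (0.983), which encode secreted matrix-associated proteins, and THBS2 had 1.21 ± 0.46, 25.0 ± 23.7 and 1.90 ± 1.15 deposited FPKM in LL, DP and LG. LGALS3 was most like EMP2 (0.992), a tetraspan membrane protein gene, PLP2 (0.983) and ZDHHC23 (0.981), with 3.12 ± 0.95, 13.6 ± 2.41 and 3.13 ± 0.54 deposited FPKM for EMP2. The changes of these 3 were smaller than those of LGALS3, at -1.55, -1.81 and -0.96 on the log2 scale in LG against DP. LGALS8 was most like PLS1 (0.961), JCHAIN (0.959) and EXOC1 (0.956), LGALS4 like LZTS3 (0.976), FARP1 (0.970) and PPOX (0.966), and LGALS3BP, whose correlations were the lowest, like CNTNAP1 (0.932), KCTD12 (0.891) and FOS (0.876).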

How the data were processed

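The authors deposited 1 table of 23499 genes with 9 columns of values, 1 per library, all of which were used. It names no unit. The deposited values were read as gene-level FPKM of the authors, since they are not whole numbers and library sums differ. Per the submitters' processing notes and the paper's methods, reads were checked with FastQC, trimmed with Trimmomatic, aligned with HISAT2 and sorted with SAMtools. The notes name HTSeq and the methods StringTie for quantification, and which of them made the deposited values is not given in the sources used here. Values are rounded to 2 decimals, whole-read steps were not seen, and depth and counting error are unknown, so no count test was run. The table names no build. A match to RefSeq genes of ARS1.2 was found for 23465 identifiers, all with the same start and end, and the coordinates printed are those of the deposited table.

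Median-ratio factors were computed over 15905 genes, and scaled values were put on the log2 scale with a pseudocount of 1. Genes at or above 0.5 FPKM in 3 or more libraries (14701) entered limma 3.58.1 (R 4.3.3, eBayes with a mean-variance trend, all 9 libraries, no covariates), with Benjamini-Hochberg adjustment over all of them. The test was checked on simulated data. The galectin genes and the 16 lists of partner and marker genes were chosen with earlier results of these data known. Every galectin row and binding partner could be named, and of the other lists up to 2 called genes per direction and comparison with the largest log2 fold change, plus the 3 genes most like each galectin gene. HEATR1 and ECH1 (for their position), MARCO, CDX1, CDX2, VIL1, FCER1G, KRT5, KRT14, KRT10, MAN2A1, MGAT5, IRF1, IRF9 and the luminal markers were named after the values were seen. So were the genes whose calls the scaling or a left-out library changes, and the value of CD14 in LG against LL. A list gene was linked when its values followed those of 1 of its 8 neighbours on either side to within 1% of its range. The fit was tried directly and after subtracting or adding, in each library, the difference between the BAX and FTL rows. The smallest residual counted, and rows said to follow a neighbouring row are linked in this sense. Figures were drawn with matplotlib 3.10.9 in Python 3.11.15. Alternatives covered scaling (none, quantile normalization), the pseudocount (0.1), the filter (none, 2 FPKM), the libraries fitted, the mean-variance trend, a replicate block and each library left out. Leaving linked genes out of the lists, and ELF5 out of the luminal markers, was added after the data were seen.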

Additional observations from a re-analysis of the deposited data

How the results depend on the processing

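Over all galectin genes and alternatives, 235 of the log2 fold changes kept their direction and side of the threshold, 10 turned direction, 4 gained a call and 3 lost it. Without scaling, LGALS8 turned to 0.87 in DP against LL, and LGALS1, LGALS3BP and LGALS8 to 0.96, 0.75 and 0.18 in LG against LL. Quantile normalization gave -0.24 for LGALS4 in DP against LL and 0.0187 for LGALS1 in LG against LL. With 1 library left out, LGALS3BP in DP against LL ranged from -0.13 to 0.32, below 0 without LL replicate 3, DP replicate 1 or DP replicate 3, and LGALS1 in LG against LL from -0.36 to 0.0206, above 0 without LL replicate 3. Of all genes, 8348 in DP against LL and 7043 in LG against LL were called without scaling, against 3321 and 2544, since the median gene is then shifted, and 3912 in LG against LL with a pseudocount of 0.1. The galectin genes called in LG against LL were 2 without scaling or with a pseudocount of 0.1. Leaving out 1 library gave 1 to 2, 1 to 2 and 2 to 2 galectin genes called in DP against LL, LG against LL and LG against DP, and 3075 to 3422, 2400 to 2576 and 1738 to 2004 of all genes. The filter of 2 FPKM left no value for LGALS4.

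Replicate numbers are shared between stages but belong to different goats, so they do not pair the libraries by animal. Deviations of same-numbered libraries correlated at -0.106 to 0.201 over 9 pairs, and of differently numbered libraries at -0.223 to 0.072 over 18 pairs. Some same-numbered pairs thus exceeded every differently numbered pair, and whether the numbers share anything else was not tested. With a replicate block 2, 1 and 2 galectin genes and 3340, 2564 and 1986 of all genes were called, and no galectin call changed. With 3 goats per stage, of 1 breed and farm, p-values measure the spread between these goats, and stage cannot be told apart from anything else that differed between them.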
